A study of Danio rerio with 4 samples.

Results

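The genes described here encode the retinal guanylate cyclases and their activators, 8 genes in all, of 31388 genes in the table for 36hpf and 31950 in the table for 72hpf. They comprise the cyclase genes *gucy2d* and *gucy2f* and the 6 activator genes *guca1a*, *guca1b*, *guca1c*, *guca1d*, *guca1e* and *guca1g*. The genes were taken by name and not by a threshold on their values, but with earlier results of these data known. Both tables list 7 of them under these symbols. *gucy2d* stands there as *gc3*, and was matched through its Ensembl gene ID. RNA was sequenced from dissected eyes of zebrafish embryos of the TL strain at 36 and 72 hours postfertilization (hpf), with 1 sample from *tet2*-/-;*tet3*-/- mutants and 1 from sibling controls at each stage, 4 samples in all. According to the methods, the siblings were phenotypically wild-type embryos from crosses of double heterozygotes, so they can carry mutant alleles, and the eyes of many embryos were pooled. The mutants carry the TALEN-made frameshift alleles *tet2* au59 and *tet3* au60. Since each genotype has 1 sample per stage, no value has a replicate check and no test across samples was run.

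Photoreceptors hold cation channels open in the dark with cyclic GMP (cGMP). Light leads to the breakdown of cGMP, the channels close and the calcium concentration in the outer segment falls. Retinal guanylate cyclases are membrane enzymes of the outer segment that make cGMP again. Guanylate cyclase activating proteins (GCAPs) are small calcium-binding proteins of the neuronal calcium sensor family. They switch the cyclases on when calcium falls and hold them back when it is high, which lets the cell recover from light and adapt to it. In human patients, mutations in *GUCY2D* and *GUCA1A* cause retinal dystrophies. In the RefSeq annotation (assembly GRCz12tu) *gucy2f* and *gucy2d* are also called gc1 and gc3, and *guca1a*, *guca1b*, *guca1c*, *guca1d*, *guca1e* and *guca1g* are called gcap1, gcap2, gcap3, gcap4, gcap5 and gcap7. The product of *guca1c*, GCAP3, is known as an activator of cones.

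As listed in the table of 72hpf, *gucy2d* lies in GRCz10 on chromosome 5 from 37523479 to 37560880 and *gucy2f* on chromosome 15 from 29429841 to 29447994. Among the activators, *guca1a* lies on chromosome 4 from 22622117 to 22630001, *guca1b* on chromosome 23 from 19300952 to 19304284, *guca1c* on chromosome 15 from 2925165 to 2940389, and *guca1e* on chromosome 22 from 1075739 to 1092619. The positions of *guca1d* (chromosome 21, 22855861 to 22915016) and *guca1g* (chromosome 25, 13936444 to 14029098) are loci merged with 2 other genes each, *alg8* and *dub* for the former and *ACTA2 (2 of 2)* and *zgc:101566* for the latter. That of *gucy2d* is shared with 1 further gene, which has only a clone name. How the reads of overlapping genes were split was not stated, so the values of these 3 members are less certain. The other 5 members stand alone at their loci.

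The libraries of 36hpf held 88875538 reads from sibling-labelled and 106912677 from mutant-labelled eyes, and those of 72hpf are given as FPKM, in which fragments are scaled by transcript length and by depth, without read counts. *tet2* had 9646 and 12459 reads in the sibling-labelled and mutant-labelled libraries of 36hpf and an FPKM of 33.6 and 34.1 at 72hpf. *tet3* had 8381 and 8611 reads and an FPKM of 55.9 and 37.9. Reads over the whole gene do not separate frameshift from wild-type transcripts, and because *tet2* was not lower in the libraries labelled mutant, these are called by their labels throughout. In all 4 libraries 12 genes listed for the retina outside photoreceptors were detected, and so were 8 photoreceptor transcription factor genes. Whether the 12 are expressed only there was not tested. Detection alone does not show that the mix of cells was alike. At 36hpf *atoh7* had the lowest log2 fold-change (mutant-labelled over sibling-labelled) of the 12, with 13794 reads in sibling-labelled against 585 in mutant-labelled eyes. Of the 12, 7 had a log2 fold-change above 0 at 36hpf. At 72hpf 4 of the 12 were higher in mutant-labelled eyes, among them *atoh7* (FPKM 30.5 and 81.2). In whole eyes, fewer cells of a type and less RNA per cell cannot be told apart.

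At 36hpf transcripts of the cyclase and activator genes were rare in eyes of both genotypes. Of the 5 genes with enough reads to compare, only *guca1a* was lower in mutant-labelled eyes. The 8 genes together had 442 reads in sibling-labelled against 525 in mutant-labelled eyes, or 5.02 and 4.86 CPM (reads scaled to a common library size by TMM, which trims extreme genes before it sets the scale). The log2 fold-change of this sum (mutant-labelled over sibling-labelled) was -0.05, with an exact (Clopper-Pearson) 95% interval from -0.23 to 0.14 that covers counting error only. The table gives the mean of 2 counts per genotype, whose origin is not stated, so the sums below count as 1 sample each.

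*gucy2d*, the better detected cyclase gene, had 243 reads in sibling-labelled eyes (154 and 89 in the separate counts) and 318 in mutant-labelled eyes (219 and 99). Its log2 fold-change was 0.09 (interval -0.15 to 0.34). The other cyclase gene, *gucy2f*, had 50 reads (27 and 23) in sibling-labelled against 68 (43 and 25) in mutant-labelled eyes. Its log2 fold-change was 0.15 (interval -0.40 to 0.71). For both cyclase genes the interval held 0 and lay within -1 and 1. The separate counts of the genotypes overlapped too, but these were not scaled for depth.

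Of the activator members, *guca1a* had the most reads at 36hpf, 86 (51 and 35) in sibling-labelled against 54 (28 and 26) in mutant-labelled eyes. Both counts from mutant-labelled eyes lay below both from sibling-labelled eyes, although the mutant-labelled library was the larger. The log2 fold-change was -0.96 (interval -1.48 to -0.46), at rank 1442 from the lowest of the 21876 genes compared. This was the 1 interval of 5 that did not hold 0, but how many of all genes have such an interval was not counted. From the larger of the 2 counts alone the log2 fold-change of *guca1a* was -1.26, and from the smaller alone -0.52. *guca1e* had 42 reads (27 and 15) and 53 (27 and 26), with a log2 fold-change of 0.04 (interval -0.57 to 0.66). *guca1c* had 18 reads (13 and 5) and 29 (20 and 9), with a log2 fold-change of 0.39 (interval -0.50 to 1.33). The counts of *guca1e* and *guca1c* do not set a direction at this depth. Summed, the 6 activator genes had 149 and 139 reads (log2 fold-change -0.39, interval -0.74 to -0.05), with *guca1a* giving 86 of the 149, while the 2 cyclase genes had 293 and 386 (0.10, interval -0.12 to 0.33).

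The remaining activator genes were at or near 0 at 36hpf. *guca1g* had 3 reads (2 and 1) in each genotype. *guca1b* and *guca1d* had 0 reads in either genotype, which allows up to 3 reads per library, or 0.0341 CPM in sibling-labelled against 0.0278 CPM in mutant-labelled eyes. These 3 genes fell below the minimum of 20 reads over both genotypes, so 5 of 8 members were compared. None of the 5 lay at or below -1 in log2 fold-change, where 6.15% of the 21876 genes compared did, and none at or above 1, where 8.9% did. Their median was 0.09, beside 0.01 over all genes compared.

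**Figure D1:**
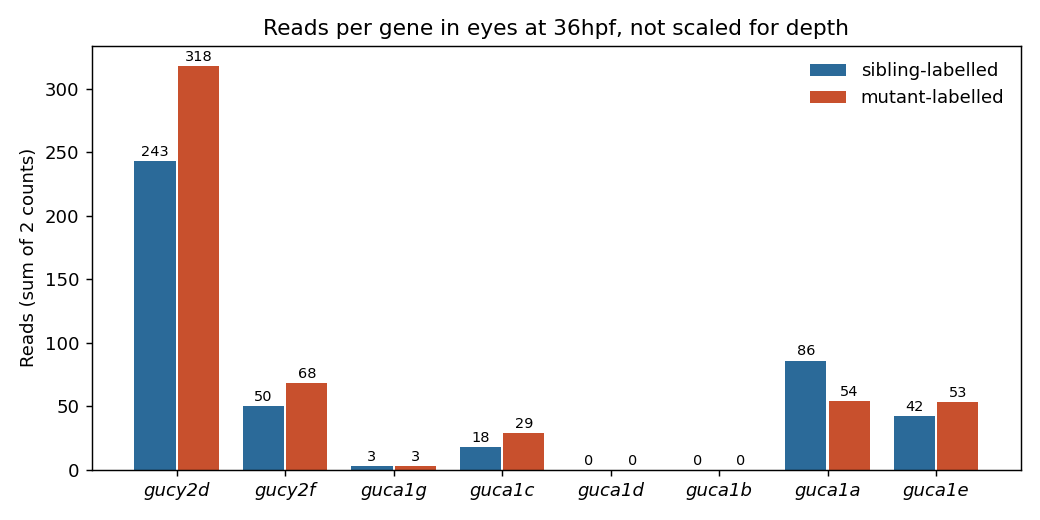
Reads of each gene at 36hpf, with genes on the x axis and the sum of the 2 counts on the y axis, not scaled for depth. Blue bars are sibling-labelled and red bars mutant-labelled eyes, 1 sample each. *gucy2d* is the tallest with 243 and 318 reads, and *guca1a* (86 and 54) is the only gene with fewer reads in mutant-labelled eyes.

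At 72hpf all 8 genes were detected in sibling-labelled eyes and all 8 were lower in mutant-labelled eyes, by 7.63-fold for *guca1b* to 121-fold for *guca1c*. The median was 19.4-fold. Of the 16420 genes that reached 1 FPKM in sibling-labelled eyes, 3.2% were more than 5-fold lower in mutant-labelled eyes. The 5-fold mark was not among the planned thresholds and lies below the smallest fold of the members. On the scale of log2(FPKM + 1), used below because it holds down genes of low level, 5 of the 8 had a difference (mutant-labelled minus sibling-labelled) of -2 or less. The same held for 1.77% of the 17307 genes that reached 1 FPKM in 1 or both libraries. All 8 were at -1 or less, where 9.02% of these genes were. The median of the members was -2.65, beside 0.02 over all genes. With 0.1 FPKM added in place of 1, the median was -3.71 and all 8 were at -2 or less.

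The minimum of 1 FPKM was reached by *gucy2d* in both libraries and by the other 7 genes in sibling-labelled eyes only, which fixes the direction of these 7. Among the 914 genes that reached it in sibling-labelled eyes only, 8.86% were at -2 or less and 39.2% at -1 or less. No member was lost to the minimum.

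The cyclase gene *gucy2d* had by far the highest level of the members in either library, with an FPKM of 82.7 in sibling-labelled against 7.30 in mutant-labelled eyes. It was 11.3-fold lower, with a log2 difference of -3.33 at rank 46 from the lowest of the 17307 genes. *gucy2f* had an FPKM of 5.45 and 0.280, which was 19.5-fold lower (log2 difference -2.33, rank 190). *gucy2d* made up 93.8% of the summed FPKM of the 2 cyclase genes in sibling-labelled against 96.3% in mutant-labelled eyes.

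The activator member with the highest level in sibling-labelled eyes, *guca1g*, had an FPKM of 22.4 in sibling-labelled against 0.198 in mutant-labelled eyes. Its log2 difference of -4.29 was the lowest of the members, at rank 13 of all genes. *guca1c*, the gene of GCAP3, had an FPKM of 10.6 and 0.0875 (log2 difference -3.41, rank 43), and *guca1d*, the gene of GCAP4, had 7.89 and 0.142 (-2.96, rank 73). In plain FPKM *guca1c* was 121-fold, *guca1g* 113-fold and *guca1d* 55.8-fold lower. These 3 were the most abundant activator genes among the members in sibling-labelled eyes, and the 3 with the widest fold among all 8 members.

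The genes of GCAP1, GCAP2 and GCAP5 were lower by less. *guca1b* had an FPKM of 6.07 in sibling-labelled against 0.796 in mutant-labelled eyes, 7.63-fold lower (log2 difference -1.98, rank 318). *guca1a* had 2.92 and 0.246 (11.8-fold, -1.65, rank 542). *guca1e* had 2.67 and 0.138 (19.4-fold, -1.69, rank 506). Among the 6 activator members, these 3 had the lowest FPKM in sibling-labelled eyes, and *guca1b* had the highest in mutant-labelled eyes.

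**Figure D2:**
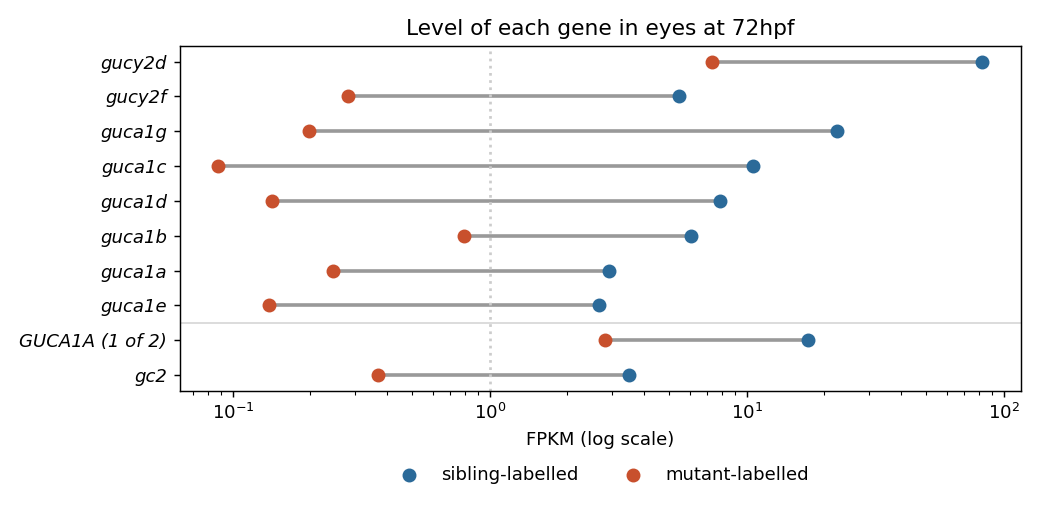
FPKM of each gene at 72hpf on a log axis, with blue points for sibling-labelled and red points for mutant-labelled eyes (1 sample each), a grey line joining them and a dotted line at 1 FPKM. The 2 rows under the rule are related genes that are not members. Red points lie left of blue points for every gene, with the longest lines for *guca1c* (10.6 and 0.0875) and *guca1g* (22.4 and 0.198).

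How many fragments stand behind the mutant values below 1 FPKM is not known from FPKM. Among the 821 genes with an FPKM below 0.1 but above 0 in both libraries, the ratio of the values clustered at 1.35 (152 genes within 0.05 on the log2 scale), with further clusters at 2 times and 0.5 times that ratio (36 and 66 genes). Such steps arise when both values rest on a few whole fragments, and a fragment thus added about 1.35 times as much FPKM in the mutant-labelled as in the sibling-labelled library. Counted in fragments, without scaling for depth, *guca1c* had about 163 in sibling-labelled eyes for each in mutant-labelled eyes. For *guca1g* this was about 153, for *guca1d* about 75.1 and for *guca1b* about 10.3. By the same steps the mutant-labelled library had about 0.743 times the depth of the sibling-labelled one. The ratios in fragments thus exceed the FPKM folds, such as 121-fold for *guca1c*, through depth alone. No interval can be given for these ratios, and the order of *guca1c* and *guca1g* is not set by these data.

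The make-up of the activator genes differed between the libraries of 72hpf. Summed over the 6 genes, FPKM was 52.6 in sibling-labelled against 1.61 in mutant-labelled eyes, 32.7-fold lower, while the sum of the cyclase genes was 88.1 and 7.58, 11.6-fold lower. The activator sum was 0.596 times the cyclase sum in sibling-labelled against 0.212 times in mutant-labelled eyes. *guca1g*, *guca1c* and *guca1d* together took 77.8% of the activator sum in sibling-labelled against 26.6% in mutant-labelled eyes. *guca1g* alone went from 42.7% to 12.3%. *guca1b* took 11.5% in sibling-labelled against 49.5% in mutant-labelled eyes, which made it the leading member there, and *guca1a* 5.55% and 15.3%. With a sum of 1.61 FPKM in mutant-labelled eyes, these shares rest on low values and have no interval. The contrast with the cyclase genes also depends on the activator genes counted. With *GUCA1A (1 of 2)*, described below, the activator sum was 15.8-fold lower in place of 32.7-fold.

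**Figure D3:**
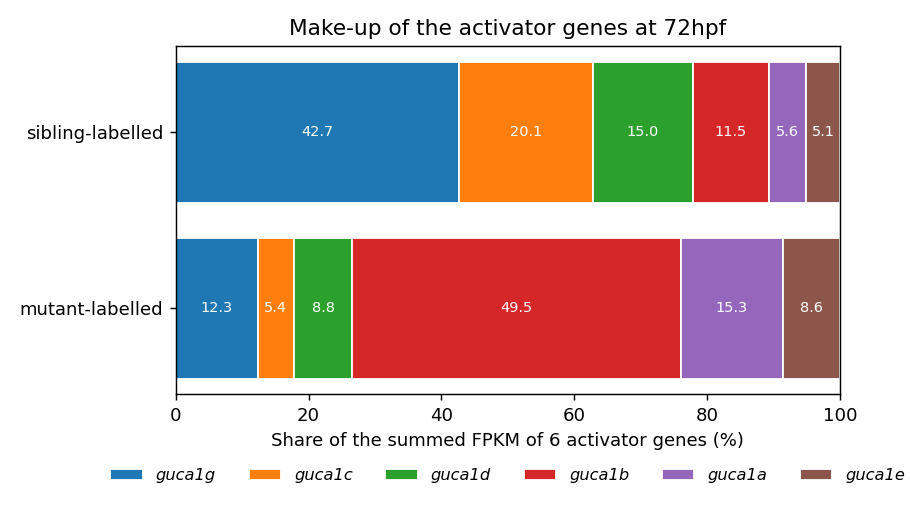
Share of each of 6 activator genes in their summed FPKM at 72hpf, as stacked bars that run to 100% for sibling-labelled (upper) and mutant-labelled eyes (lower), 1 sample each. *guca1g* is the widest segment above (42.7%) and *guca1b* below (49.5%).

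A further activator gene and a further retinal cyclase gene, set beside the 8 after their values were seen, were also lower in mutant-labelled eyes at 72hpf. *GUCA1A (1 of 2)*, an activator gene that the tables name by its human counterpart, lies on chromosome 22 from 1121098 to 1130072, 28.5 kb from *guca1e*. It had an FPKM of 17.3 in sibling-labelled against 2.81 in mutant-labelled eyes, 6.14-fold lower (log2 difference -2.26), against 19.4-fold for its neighbour. The reads of close paralogs can be split by the counting, so the values of this pair are uncertain. Counted with the 6 members, it would lead the activator sum in mutant-labelled eyes with 63.6%, and *guca1b* would have 18.0%. That sum would be 69.8 FPKM in sibling-labelled against 4.42 in mutant-labelled eyes, 15.8-fold lower, beside 11.6-fold for the sum of *gucy2d* and *gucy2f*. The cyclase gene *gc2* had 3.48 and 0.369, 9.44-fold lower. At 36hpf *GUCA1A (1 of 2)* had 52 and 63 reads, with a log2 fold-change of -0.02 (interval -0.57 to 0.54), and *gc2* had 7 and 8.

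Set beside each other, the stages gave unlike pictures for the same genes. The cyclase genes had log2 values of 0.09 and 0.15 at 36hpf and of -3.33 and -2.33 at 72hpf. *guca1c* and *guca1e* had values of 0.39 and 0.04 at 36hpf and of -3.41 and -1.69 at 72hpf. *guca1a* was the 1 member below 0 at both stages (-0.96 and -1.65). *guca1b* and *guca1d*, with 0 reads at 36hpf, had a sibling FPKM of 6.07 and 7.89 at 72hpf. The stages were sequenced and processed separately and have different units, so the difference between them was not tested.

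**Figure D4:**
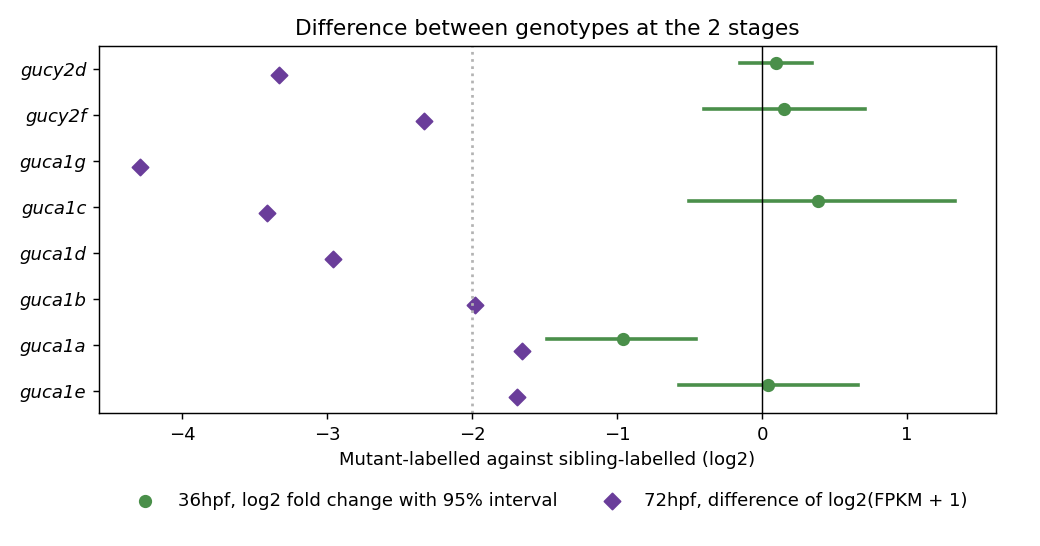
Difference between genotypes for each member on the log2 scale (x axis), with green points and lines for the fold-change and 95% counting interval at 36hpf and violet diamonds for the difference of log2(FPKM + 1) at 72hpf, 1 sample per genotype and stage. The dotted line marks -2, *guca1g*, *guca1d* and *guca1b* have no 36hpf value, and all diamonds lie between -4.29 and -1.65.

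Genes for the channels that cGMP opens and for the exchangers that carry calcium out were also lower in mutant-labelled eyes at 72hpf, by differing amounts. Among 10 genes for cGMP-gated channels and calcium exchangers the median was -2.92. Of these, 6 lay at or below -2 and 9 at or below -1. *cngb1a*, a channel subunit gene, had an FPKM of 24.4 and 0.349 (-4.24) and *slc24a2*, an exchanger gene, 67.8 and 4.58 (-3.62). At the other end were *slc24a4a* (-0.57) and the channel gene *cnga1* (-1.67). At 36hpf the 7 genes of this list that were compared were all above 0, with a median of 0.53. Among them *cngb1a* had 5 and 18 reads and *slc24a1* 13 and 34.

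Of 5 genes for subunits and partners of phosphodiesterase 6, the enzyme that breaks cGMP down, all 5 lay at or below -1 at 72hpf and 3 at or below -2 (median -2.74). *pde6c*, the catalytic subunit gene of cones, had an FPKM of 250.9 and 5.33 (-5.31), and *pde6d*, whose product also serves other cells, had 45.7 and 22.0 (-1.02). At 36hpf the 5 genes split, with 3 below and 2 above 0 and a median of -0.75. The lowest were *pde6a*, a rod subunit gene, with 128 and 55 reads, and *pde6c* with 24 and 12, and the highest were *pde6b* with 212 and 333 and *pde6ha* with 6 and 17.

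*rd3*, whose product in mammals binds the retinal cyclases and takes part in their transport to the outer segment, had the smallest difference of its list at 72hpf. It had an FPKM of 48.2 in sibling-labelled against 34.2 in mutant-labelled eyes (log2 difference -0.48), beside -3.33 for *gucy2d* and -2.33 for *gucy2f*. At 36hpf it had 37 and 33 reads (-0.45). Its relative *rd3l* had an FPKM of 4.86 and 1.67 at 72hpf (-1.13). The recoverin genes *rcv1* and *rcvrna*, which encode other calcium sensors of photoreceptors, had differences of -2.57 and -2.33 at 72hpf.

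The lists of other guanylate cyclases and other calcium sensors had medians nearer 0 than the members at 72hpf, but not at 36hpf. The cyclase list includes the retinal cyclase gene *gc2*. At 36hpf the median was 0.75 for 7 other cyclase and receptor genes, 6 of them above 0, and -0.15 for 18 calcium sensor genes, beside 0.09 for the members. Among the other guanylate cyclase and natriuretic peptide receptor genes, 6 were compared at 72hpf, with a median of -0.44. Only *gc2*, which is a close relative of the members, was at -1 or less (-1.71). *gucy1b3*, a subunit gene of the soluble cyclase, had an FPKM of 8.16 and 4.97 (-0.62), and the natriuretic peptide receptor genes *npr2* and *npr1a* were at 0.72 and 0.21. Of 17 genes for calmodulin and other neuronal calcium sensors, the median was -0.77, and 6 lay at or below -1, of which 2 at or below -2. The range ran from *ncaldb* (39.4 and 4.30, -2.93) to *ncalda* (20.3 and 35.4, 0.77), paralogs that encode neurocalcin delta.

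**Figure D5:**
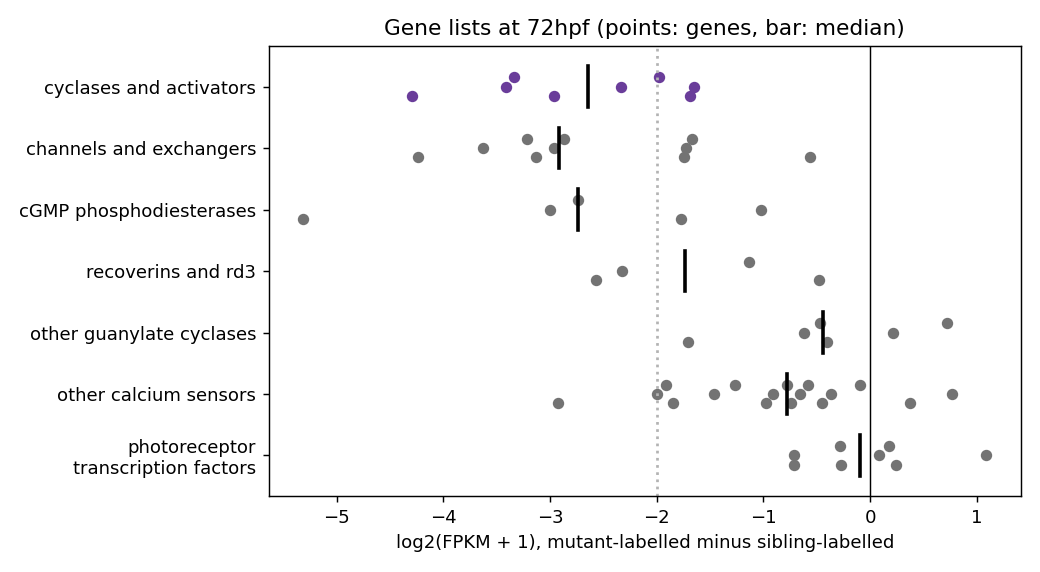
Difference of log2(FPKM + 1) at 72hpf (x axis) for the members (violet) and 6 other lists (grey), with 1 point per gene, a black bar at the median of each list and a dotted line at -2. The members (median -2.65), channels and exchangers (-2.92) and phosphodiesterases (-2.74) lie to the left, and photoreceptor transcription factors (-0.09) around 0.

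Photoreceptor transcription factor genes had their low values at the other stage. Values of 8 of the 9 listed genes were used, without *crx*. At 36hpf the median of the 8 was -1.28 and 6 lay at or below -1, while the members had a median of 0.09. At 72hpf none of the 8 lay at or below -1 and their median was -0.09, while the members had a median of -2.65. Their summed FPKM was 986.7 in sibling-labelled against 926.0 in mutant-labelled eyes.

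Markers of other tissues moved with the labels too, by unlike amounts at the stages. The median log2 value of the lens genes compared was -2.17 at 36hpf and -0.74 at 72hpf. For epidermis it was 1.96 at 36hpf and 0.68 at 72hpf. For muscle it was 0.01 at 36hpf and 2.59 at 72hpf, and for red blood cells 0.70 and 1.85. At 36hpf the 8 lens genes summed to 408813 and 121659 reads, 6 of them at -2 or less (1.4% of all genes), and the 6 epidermis genes to 170980 and 804705, 5 of them at 1 or more. At 72hpf the 7 muscle genes had a summed FPKM of 31.2 in sibling-labelled against 193.9 in mutant-labelled eyes, all 7 were at 1 or more (3.65% of all genes were), and *myl7* was listed at 0 in the former. The 3 red blood cell genes had 333.9 and 947.6, all at 1 or more. Their part in the values of the members was not tested. The pineal organ also holds photoreceptors, and the 2 pineal genes measured, of 5 listed, were detected in the eye libraries. Which tissue their reads came from was not tested. *aanat2* had 168 and 248 reads and *parapinopsinb* 137 and 248 at 36hpf, more than any activator gene, and at 72hpf they had an FPKM of 11.3 and 6.29 and of 7.19 and 1.19. At 36hpf both had log2 fold-changes above 0 (0.27 and 0.56), while *guca1a* was at -0.96. Their part in the reads of the members at 36hpf was not tested.

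Of all 13410 other named genes compared at both stages, 350 lay within a distance of 1 on the log2 plane from the medians of the 5 members compared at both stages (0.09 at 36hpf and -2.33 at 72hpf). The nearest 5 were *RCSD1 (2 of 2)* at a distance of 0.0874, *SLC9A3R2 (1 of 2)* at 0.103, *asmt*, an enzyme gene of melatonin synthesis, at 0.113, *frmpd2* at 0.130 and *GUCA1A (1 of 2)* at 0.133. The likeness rests on 2 differences from 4 libraries.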

How the data were processed

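The members and gene lists were chosen with earlier results of these data known. For 36hpf the authors used CLC Genomics Workbench 9.0.1 to trim reads, map them to GRCz10 and compute abundances. Their deposited values are expected counts in form, the mean of 2 whole counts per gene and genotype, although the header says FPKM. The deposited log2 columns hold the mean log2 of the same counts and were used only to recover both. The authors' signed ratios, treated as scores, and a deposited table of 883 changed genes with log2 fold-changes were not used. For 72hpf the authors used FastQC, TopHat and the Cufflinks package to produce the deposited FPKM on GRCz10. The version of either was not given in the sources used here.

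The 2 counts were summed, which needed no rounding, scaled by TMM over genes with at least 20 reads (edgeR 4.0.16), and compared after adding 0.5 reads, weighted by library size. The exact 95% intervals hold counting error alone and treat each read as independent. The methods mention no molecular identifiers, so reads copied from the same molecule were not told apart and the intervals can be too narrow. Alternatives were DESeq2 1.42.0 size factors, total counts, 2 reads added, no minimum or 100 reads, and the larger or the smaller count alone. The larger count was picked for each gene and genotype apart, so it need not have the same origin from gene to gene. At 72hpf 1 FPKM was added, with 0.1 FPKM, other minimums and a rescaling by the median ratio as alternatives. The log2 threshold of 2 is the one the methods state, but they apply it to log2 fold-changes. At 72hpf it was applied here to differences of log2(FPKM + 1), which are smaller for genes of low level. As a plain log2 ratio of FPKM, the smallest difference of a member was -2.93, for *guca1b*. Steps were tested on simulated counts.

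All 8 members are named. Of each other list, names come from the 2 lowest and 2 highest values at a stage, and the 5 genes nearest in pattern and both targeted genes are named. *GUCA1A (1 of 2)* and *gc2* were set beside the members after their values were seen. List genes were matched by symbol, or by gene ID where the tables use another name, and counts refer to those found. After the tables showed that *gc3* is *gucy2d*, it was taken out of the list of other cyclases.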

Additional observations from a re-analysis of the deposited data

Results flagged for a closer look

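Of the members compared at both stages, 4 had opposite signs at 36hpf and 72hpf, with more reads in mutant-labelled eyes at the earlier stage and lower values at the later. These were *guca1c* (log2 fold-change 0.39 at 36hpf and log2 difference -3.41 at 72hpf), *guca1e* (0.041 and -1.69), *gucy2f* (0.15 and -2.33) and *gucy2d* (0.094 and -3.33). The difference between the stages was not tested, and the counting intervals of all 4 held 0 at 36hpf. Of the 21876 genes compared at 36hpf, 11150 were above 0, and how many of them were lower at 72hpf was not counted. The direction of *guca1c*, *guca1e* and *gucy2f* at 72hpf was fixed, since they reached 1 FPKM in sibling-labelled eyes only.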

How the results depend on the processing

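No paired analysis was possible because each genotype has 1 sample per stage. At 36hpf the median of the members stayed between 0.05 and 0.12 under every alternative run. A minimum of 100 reads left 3 members, 2 of them above 0. With the larger counts only, 1 member, *guca1a*, was at -1 or less, and *guca1e* was at -0.40, its 1 change of sign. At 72hpf 0.1 FPKM added gave a median of -3.71 and 8 members at -2 or less. Rescaling by the median ratio of 1.02 gave -2.65. Without *guca1g*, the share of *guca1b* in the activator sum was 20.2% in sibling-labelled against 56.5% in mutant-labelled eyes. With *GUCA1A (1 of 2)*, its share was 8.69% in sibling-labelled against 18.0% in mutant-labelled eyes. That setting was added after seeing the data, as were the settings without *gucy2d* and with *gc2*. All members kept their sign at 72hpf, but the alternatives run could not have changed it. An added constant or a minimum keeps the order of 2 values, and the rescaling by 1.02 was small beside the differences. Read numbers limit the comparison at 36hpf, where 3 members had 6 reads or fewer in all.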
